A study of Mus musculus with 24 samples.

Results

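The genes described here are the collagen chain genes of the mouse heart, taken as every row of the count table whose symbol is Col, a number, the letter a and a number. The table held 44 of them among 21878 rows, and 38 of the 44 were among the 13501 genes with enough reads to be tested. RNA was sequenced from whole hearts of ovariectomised (OVX) mice 3 weeks after myocardial infarction (MI), the death of heart muscle after a coronary artery is closed. All mice had received AAV9, an adeno-associated virus that carries genes to heart muscle, and all had MI surgery. The groups were AAV9 with miR-21 overexpression and swimming training before MI (miR-21 swimming, 5 libraries), empty AAV9 and swimming (empty vector swimming, 6 libraries), AAV9 with miR-21 overexpression without swimming (miR-21 control, 6 libraries), and empty AAV9 without swimming (empty vector control, 6 libraries). The labels give neither an age, a strain nor the promoter that drives the vector's cargo, so the cell types that carried it are unknown, and its miR-21 was not measured here. Separate mice are not stated either, and the spread that a p-value measures here is that between libraries, which may be partly technical. The design asks what miR-21 overexpression and swimming change in the infarcted heart, and the series' title names fibroblast activation, the state in which heart fibroblasts deposit collagen.

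Collagens are secreted proteins in which 3 chains wind around each other, which needs a glycine at the start of each Gly-X-Y unit. After MI, fibroblasts replace dead muscle with a scar rich in the fibrillar collagens of types I and III, while collagen IV forms the sheet-like basement membrane around muscle cells and vessels. The 44 genes were grouped by what their proteins build: 11 fibrillar chains, 9 network-forming chains (types IV, VIII and X), 6 beaded-filament chains (type VI), 9 FACIT chains, which sit on the surface of fibrils, 2 multiplexins of basement membranes (types XV and XVIII), 4 transmembrane chains and 3 others (Col7a1, Col26a1 and Col28a1).

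The classes can be read in the coding sequence. In the longest open reading frame of each gene (GENCODE M21 transcripts, GRCm38), the longest unbroken Gly-X-Y run had 216 to 344 units in the fibrillar chains, with a median of 338, against 39 to 66 units with a median of 45 in the network chains. Network chains carried a median of 23 separate runs and fibrillar chains a median of 2. Beaded, FACIT, transmembrane and multiplexin chains had longest runs of 37 to 87, 32 to 113, 40 to 55 and 30 units. A stretch of each kind is shown because it carries that difference: coding bases 502 to 591 of Col1a1 (chromosome 11, residues 168 to 197) are an unbroken repeat, and coding bases 424 to 513 of Col4a1 (chromosome 8, residues 142 to 171) hold interruptions. Glycine codons are in capitals.
Col1a1: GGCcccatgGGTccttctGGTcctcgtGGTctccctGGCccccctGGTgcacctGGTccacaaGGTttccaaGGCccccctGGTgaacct
Col4a1: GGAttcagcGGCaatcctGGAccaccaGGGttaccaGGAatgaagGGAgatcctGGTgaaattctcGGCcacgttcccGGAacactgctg
In Col1a1 the stretch is 10 units that all open with glycine. In Col4a1 the stretch has 9 glycines, and after the seventh and the eighth of them 3 other residues, not 2, stand before the next glycine.

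The promoters of 3 chains that enter the chain ratios below are also shown. RefSeq promoter windows, from 250 bases before to 50 after each start (GRCm38.p6), were at hand for 35 of the 44 genes. Col4a1 and Col4a2 start 21 bases apart on opposite strands, and the 78 bases that their windows share are in capitals in both sequences. In the Col1a2 window the capitals mark the CCAAT box and its reverse complement ATTGG.
Col4a1 (GRCm38.p6, chr8:11312777-11313076, minus strand): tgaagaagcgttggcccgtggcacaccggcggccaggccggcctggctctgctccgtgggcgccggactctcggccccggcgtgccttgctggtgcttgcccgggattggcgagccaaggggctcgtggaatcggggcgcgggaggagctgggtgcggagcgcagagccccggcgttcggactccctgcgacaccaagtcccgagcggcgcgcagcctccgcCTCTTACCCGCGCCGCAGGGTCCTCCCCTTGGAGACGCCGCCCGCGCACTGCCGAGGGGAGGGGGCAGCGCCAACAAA
Col4a2 (GRCm38.p6, chr8:11312555-11312854, plus strand): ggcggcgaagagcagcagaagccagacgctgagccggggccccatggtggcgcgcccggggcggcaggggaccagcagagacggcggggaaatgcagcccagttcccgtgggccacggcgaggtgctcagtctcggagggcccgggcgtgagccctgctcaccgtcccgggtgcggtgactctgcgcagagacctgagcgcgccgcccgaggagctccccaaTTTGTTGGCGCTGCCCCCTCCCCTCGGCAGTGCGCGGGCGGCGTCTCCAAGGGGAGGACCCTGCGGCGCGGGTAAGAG
Col1a2 (GRCm38.p6, chr6:4505368-4505667, plus strand): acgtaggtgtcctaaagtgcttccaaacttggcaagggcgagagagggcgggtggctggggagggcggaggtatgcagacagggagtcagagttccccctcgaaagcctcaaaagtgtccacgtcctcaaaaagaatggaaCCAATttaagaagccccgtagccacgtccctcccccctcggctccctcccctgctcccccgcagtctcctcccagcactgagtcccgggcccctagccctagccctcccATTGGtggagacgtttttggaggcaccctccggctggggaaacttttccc
Both strands of each window were searched, and none of the 3 motifs contains another. GGGCGG, the core of the GC box, was present in 22 of 35 collagen windows (62.9%), against 35.9% of 27025 windows over all genes. CCAAT was present in 12 of 35 (34.3%), against 37.9%, and TATAAA in 5 of 35 (14.3%), against 14.2%. A match describes the letters only.

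The total count per library ran from 12839383 to 14546209 in miR-21 swimming hearts, from 13343385 to 14082098 in empty vector swimming hearts, from 12744241 to 14608507 in miR-21 control hearts and from 13442909 to 14657630 in empty vector control hearts. Cardiomyocyte markers summed to 65332 to 137364 CPM (counts scaled to library size), so every library held heart muscle RNA. In 3 libraries the mean of 10 adipocyte markers stood 3.60 to 3.86 above the median library on the log2 scale, with the next library at 1.34. These were miR-21 swimming replicate 2, empty vector control replicate 2 and empty vector control replicate 5. For each comparison the values without these 3 libraries are also given, for the chains and lists that they change most, which is a choice made after seeing the data. The numbers in the sample titles are below 2000 for both groups without swimming and for replicates 1 and 2 of the miR-21 swimming group, and above it for the others. Swimming with the empty vector therefore cannot be told apart from title number series.

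**Figure D1:**
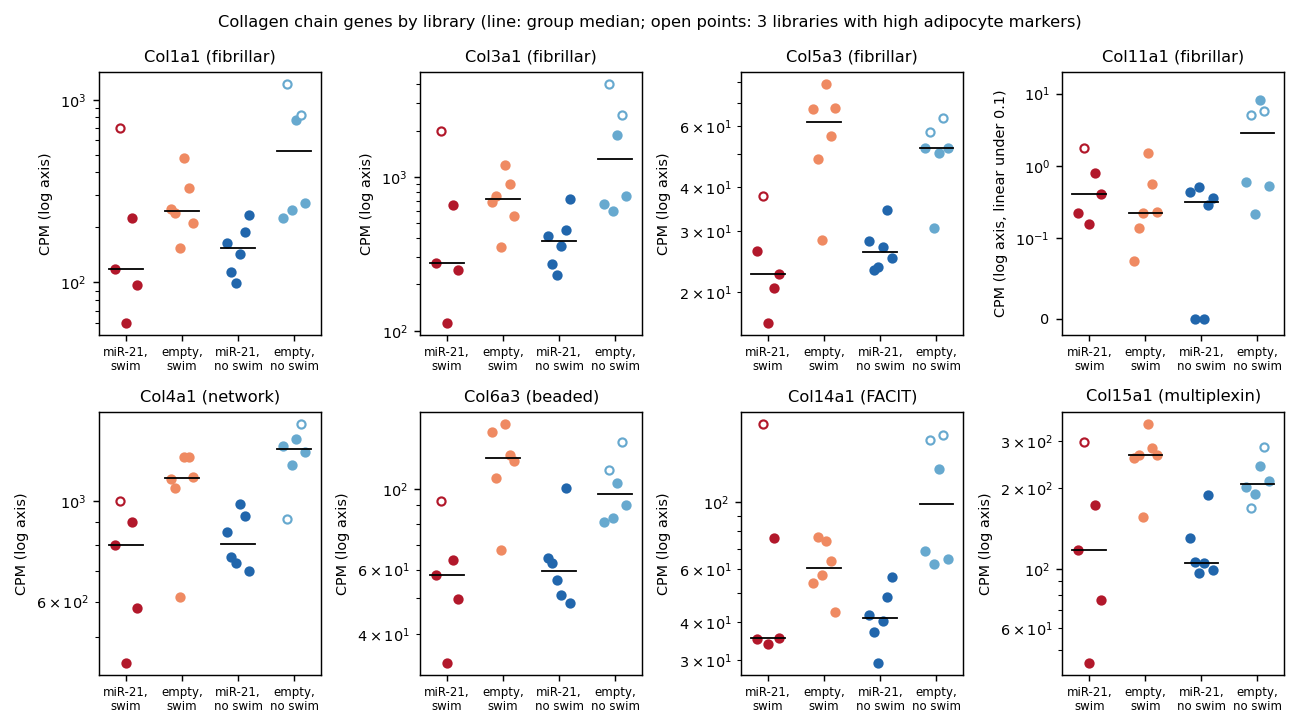
Level of 8 collagen genes in each library, in CPM on a log axis, with the groups side by side from miR-21 swimming to empty vector control. Each point is 1 library, the line is the group median, and open points are the 3 libraries with high adipocyte markers, of which miR-21 swimming replicate 2 has the highest Col3a1 of its group, 1973 CPM.

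Basement membrane chains and fibrillar chains made up most collagen RNA. On the per-length scale (the authors' FPKM, fragments scaled by transcript length and library size), Col4a1 gave a median of 21.1% of all collagen FPKM over the 23 libraries and its partner Col4a2 gave 18.5%. Col3a1, the single chain of type III collagen, gave 16.05%, Col1a2 7.71%, Col6a1 7.32%, Col1a1 5.59% and the multiplexin Col15a1 5.01%. The median FPKM of Col3a1 was 47.9 in miR-21 swimming hearts, 132 in empty vector swimming hearts, 66.2 in miR-21 control hearts and 236 in empty vector control hearts. That of Col4a1 was 104, 150, 104 and 173 in the same order of groups. In both swimming groups and in miR-21 control hearts the median of Col4a1 was thus above that of Col3a1, and in empty vector control hearts below it.

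All collagen FPKM together came to 252 at the lowest, 427 at the median and 1430 at the highest in miR-21 swimming hearts. In empty vector swimming hearts the same 3 values were 454, 766 and 1056, in miR-21 control hearts 364, 494 and 569, and in empty vector control hearts 690, 1038 and 1787. Every miR-21 control library was below every empty vector control library, while the 2 swimming groups overlapped, since replicates 2 and 4 of the miR-21 group (1430 and 630) were above the lowest empty vector swimming library. Collagens were 0.0785% to 0.133% of all FPKM in miR-21 control hearts and 0.158% to 0.418% in empty vector control hearts. Fibrillar chains gave 25.8% to 56.6% of collagen FPKM in miR-21 swimming hearts, 31.2% to 44.2% in empty vector swimming hearts, 26.4% to 46.0% in miR-21 control hearts and 32.7% to 73.5% in empty vector control hearts. The fibrillar share was thus the most uneven in empty vector control hearts. The summed network FPKM was 192 to 265 in miR-21 control hearts and 268 to 445 in empty vector control hearts, without overlap, and that of the fibrillar chains was 95.8 to 239 against 226 to 1313, with overlap. In whole hearts, fewer cells of a type and less RNA in each cannot be told apart.

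**Figure D2:**
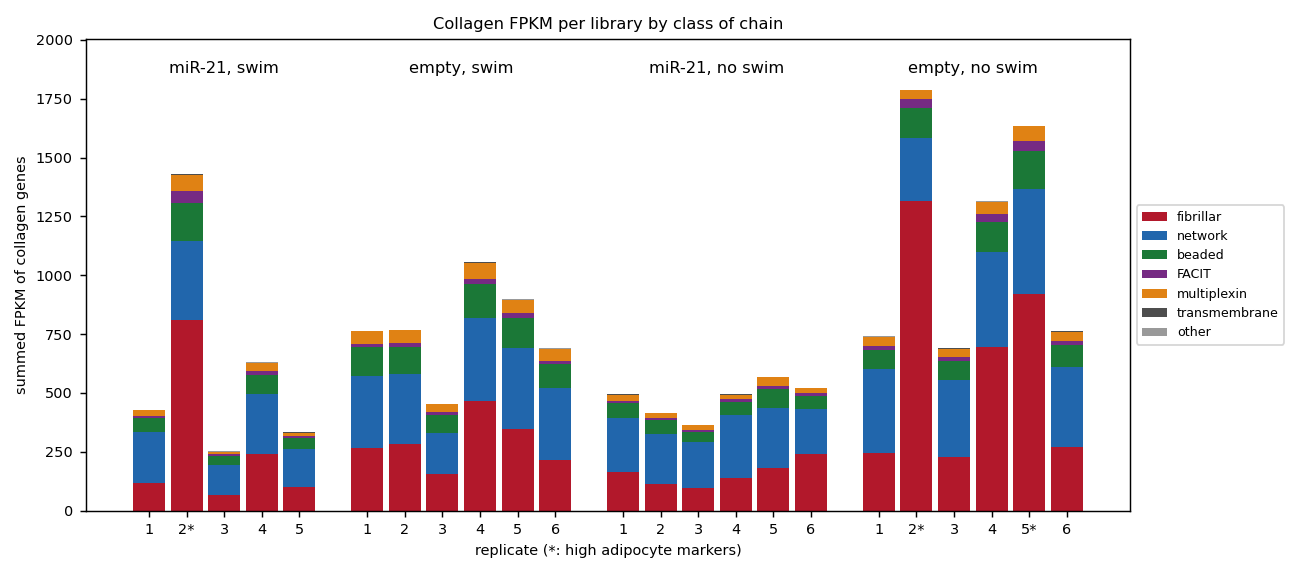
Summed FPKM of the collagen chains in each library, stacked by class, with the groups from miR-21 swimming to empty vector control. The bars of miR-21 control hearts end between 364 and 569, and those of empty vector control hearts between 690 and 1787.

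Of the 44 genes, 6 had too few reads to be tested. The cartilage collagen genes Col2a1, Col10a1 and Col9a1 reached at most 13, 8 and 1 reads in a library. The beaded chain Col6a4 reached 8 reads, the FACIT chain Col19a1 3, and the transmembrane chain Col17a1, of the junctions between epithelium and basement membrane, 6. No test was possible for these 6. The other 38 are described next, beginning with the effect of the miR-21 vector without swimming, and a gene is called changed where its adjusted p is under 0.05 in a model of all 13501 genes (edgeR's quasi-likelihood test with Benjamini-Hochberg adjustment, used for every adjusted p of a gene below).

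In hearts that had not swum, 2 fibrillar chains fell with the miR-21 vector and none of the 38 rose. Col5a3 and Col11a1 were the 2, and 34 of the 38 log2 fold changes were negative. The median over the 38 genes was -0.71, against -0.00 over all 13501. The 2 falls are 2 of 38 members, where 1.37% of all genes fell. At an unadjusted p under 0.05, 19 of the 38 were lower and 0 higher, against 15.97% of all genes lower and 12.4% higher. DESeq2 called 17 lower and 0 higher, of 1235 genes called in all. A further 15 chains had an adjusted p between 0.05 and 0.1, all with a negative log2 fold change. Over all genes, 12.3% had an adjusted p under 0.1. In 5 of the 38 genes every miR-21 control library was below every empty vector control library, against 2.41% of all genes, and in 0 the reverse held, against 3.03%.

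Fibrillar chains had the most negative median of the named classes, -1.53, with 10 of 10 below 0. Col5a3, a minor chain of type V collagen, which starts fibrils, had 23.2, 26.0 and 34.6 CPM (lowest, median, highest) in miR-21 control hearts and 30.6, 51.9 and 63.1 CPM in empty vector control hearts. Its log2 fold change was -0.92 ± 0.22 (SE, adjusted p = 0.0399), with 6 of 6 miR-21 libraries below the empty vector mean. Only the lowest empty vector library, replicate 3, reached into the miR-21 range. Col11a1, a type XI chain known from cartilage fibrils, had 0, 0.32 and 0.51 CPM in miR-21 control hearts and 0.21, 2.84 and 8.15 CPM in empty vector control hearts. Its log2 fold change was -3.64 ± 0.91 (adjusted p = 0.0436). The empty vector group was split, with 5.08, 8.15 and 5.77 CPM in replicates 2, 4 and 5 and at most 0.60 CPM in the others.

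The type I and III chains did not pass the threshold. Col1a1 had 99.4, 153 and 233 CPM in miR-21 control hearts and 226, 522 and 1221 CPM in empty vector control hearts, a log2 fold change of -1.92 ± 0.53 (adjusted p = 0.0551). Col1a2 had 133, 190 and 262 CPM against 249, 532 and 1196 CPM, with -1.67 ± 0.48 (adjusted p = 0.0594). Col3a1 had 229, 383 and 716 CPM against 604, 1309 and 4023 CPM, with -2.10 ± 0.60 (adjusted p = 0.0592). In each of these 3 the ranges touched, since the highest miR-21 control library reached the lowest empty vector control libraries. The highest values were again those of empty vector replicates 2, 4 and 5, of which replicate 4 does not have high adipocyte markers. The other type V chains were separate between groups. Col5a1 had 51.9, 76.2 and 101 CPM in miR-21 control hearts and 106, 153 and 224 CPM in empty vector control hearts, with -1.09 ± 0.31 (adjusted p = 0.0558). Col5a2 had 54.5, 68.9 and 90.7 CPM against 91.7, 181 and 269 CPM, with -1.39 ± 0.39 (adjusted p = 0.0569). Neither passed the threshold. The minor fibrillar chain Col27a1 had -0.56 ± 0.17 (adjusted p = 0.0636), Col24a1 -2.04 ± 1.11 (adjusted p = 0.223) and Col11a2 -0.05 ± 0.17 (adjusted p = 0.861).

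Among network chains, 8 of 8 log2 fold changes were negative with a median of -0.59, and none passed. Col4a1 had 702, 804 and 986 CPM in miR-21 control hearts and 914, 1305 and 1482 CPM in empty vector control hearts, with -0.61 ± 0.18 (adjusted p = 0.0594). Col4a2, which shares its promoter region, had 553, 660 and 787 CPM against 722, 983 and 1124 CPM, with -0.56 ± 0.16 (adjusted p = 0.0553). The 2 genes differed by nearly the same amount. Col4a5, an X-linked type IV chain, had -0.03 ± 0.11 (adjusted p = 0.863, 95% interval -0.26 to 0.19). Col8a1, a type VIII chain of vessel walls, had 23.7, 49.98 and 67.1 CPM against 45.9, 67.5 and 117 CPM, with -0.71 ± 0.35 (adjusted p = 0.187). Col8a2, its partner, had 0.85, 1.75 and 3.29 CPM against 4.65, 5.49 and 21.5 CPM, with -2.47 ± 0.74 (adjusted p = 0.0644) and no overlap.

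In the beaded, FACIT and multiplexin classes 12 of 14 log2 fold changes were below 0 and none passed. The type VI chains Col6a1, Col6a2 and Col6a3, which build microfilaments beside basement membranes, had -0.86 ± 0.24, -0.86 ± 0.26 and -0.66 ± 0.22 (adjusted p = 0.0561, 0.0669 and 0.0841). Col14a1, a FACIT chain that regulates fibril width, had 29.4, 41.3 and 56.7 CPM in miR-21 control hearts and 62.3, 98.7 and 166 CPM in empty vector control hearts, with -1.35 ± 0.38 (adjusted p = 0.0546) and no overlap. The FACIT chain Col16a1 likewise did not overlap, with 16.04, 17.7 and 22.2 CPM against 25.1, 36.1 and 59.4 CPM (-1.13 ± 0.37, adjusted p = 0.0763). Col12a1, a FACIT chain of tissues under tension, had 2.76, 3.02 and 7.04 CPM against 5.32, 9.502 and 20.6 CPM (-1.69 ± 0.56, adjusted p = 0.0803). The multiplexins Col15a1 and Col18a1, whose protein can release endostatin-type fragments, had -0.84 ± 0.31 (adjusted p = 0.104) and -0.73 ± 0.28 (adjusted p = 0.109). The 3 transmembrane chains had a median of -0.37, and the 3 others a median of 0.16.

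Which chains pass in hearts without swimming turned on single libraries. Of the 38, 17 had an adjusted p under 0.1, against 12.3% of all genes. Left without miR-21 swimming replicate 2, which belongs to neither of the 2 groups but shares the estimate of spread, the model called 19 chains lower, and without any 1 of the miR-21 control libraries it called 0. It also called 0 without any 1 of the empty vector control replicates 2, 4 and 5, or of the empty vector swimming replicates 1 and 5. The calls over all genes moved too, from 304 with every library to 2885 without miR-21 swimming replicate 2. They were 18 to 91 without 1 of the miR-21 control libraries, and 17 to 145 without 1 of the other libraries named. A fit of only these 2 groups called 18 chains lower of 1622 genes in all. Without the 3 libraries with high adipocyte markers, 3 chains fell, where 2.87% of 13389 tested genes did: Col4a1 (-0.65, adjusted p = 0.0499), Col4a2 (-0.62, adjusted p = 0.0374) and Col14a1 (-0.94, adjusted p = 0.0462). Col5a3 then had -0.77 (adjusted p = 0.0536), Col11a1 was not among the genes tested, and the median over 36 chains was -0.63. The type I and III differences were smaller in that fit, at -1.28 for Col1a1, -1.04 for Col1a2 and -1.26 for Col3a1 (adjusted p = 0.0773, 0.0895 and 0.111).

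**Figure D3:**
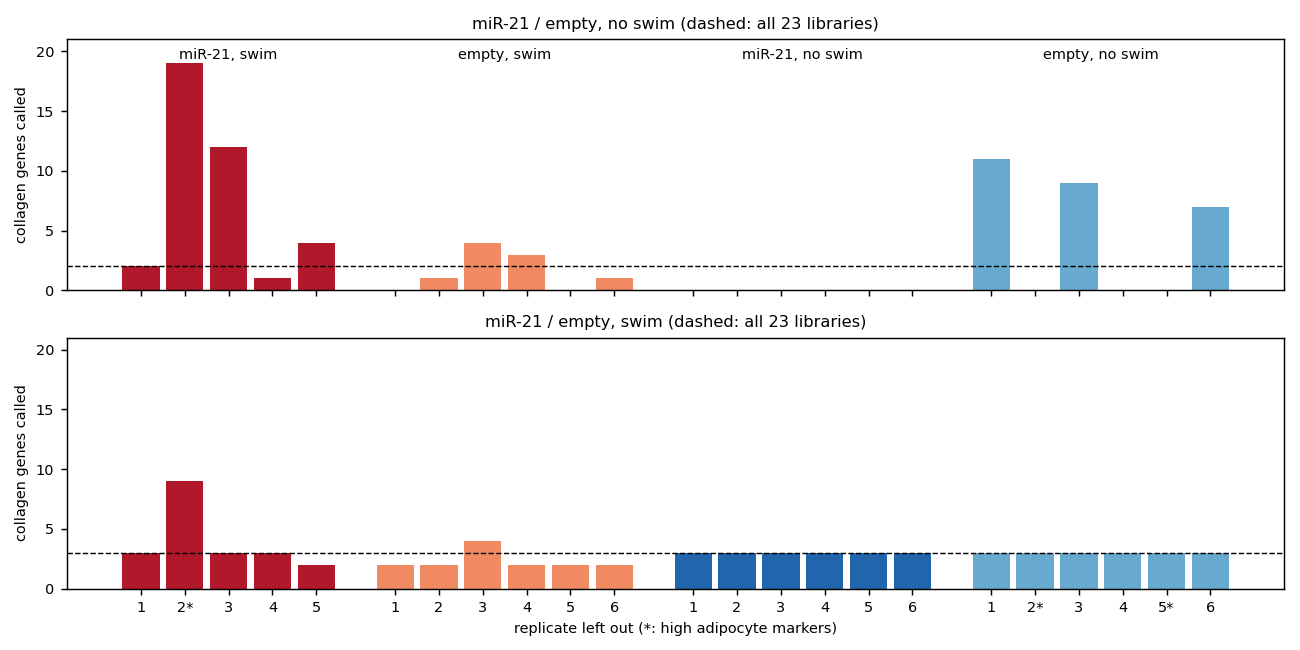
Number of collagen chain genes called changed when each library in turn is left out of the model, for miR-21 swimming against empty vector swimming and for miR-21 control against empty vector control. The count reaches 9 between the swimming groups and 19 between the control groups, both without miR-21 swimming replicate 2. Over all genes, 1871 and 2885 were called without that replicate, against 618 and 304 with every library.

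Genes around the collagens moved in the same comparison. Of 33 genes of collagen biosynthesis, 5 fell and 1 rose in miR-21 control hearts, 22 were lower at an unadjusted p under 0.05, and the median log2 fold change was -0.40. Over all 13501 genes, 1.37% fell and 119 genes rose, and 15.97% were lower at an unadjusted p under 0.05. Those named are P4ha3, a proline hydroxylase subunit (-2.80 ± 0.67, adjusted p = 0.0408), Creb3l1, a transcription factor of secretory cells (-0.92 ± 0.21, adjusted p = 0.0334), Plod3, a lysine hydroxylase (-0.33 ± 0.08, adjusted p = 0.0420), and Tll2, a protease of the tolloid family, which rose (1.21 ± 0.30, adjusted p = 0.0419). Of 14 proteins that bind fibrils 1 fell, Abi3bp (-1.62 ± 0.35, adjusted p = 0.0303), with 12 lower at an unadjusted p under 0.05 and a median of -0.93. Of 13 genes of collagen breakdown 1 fell, Mmp2, a gelatinase (-1.12 ± 0.28, adjusted p = 0.0436), with 10 lower at an unadjusted p under 0.05 and a median of -1.25. Of 9 tested collagen receptors none passed, with 5 lower and 0 higher at an unadjusted p under 0.05. The medians of all 4 lists were below 0, that of the receptors at -0.41. When the 3 libraries with high adipocyte markers were left out, 10 biosynthesis genes fell and 1 rose, 1 partner and 2 breakdown genes fell, and the 4 medians were -0.33, -0.53, -0.76 and -0.22 in the order biosynthesis, partners, breakdown and receptors. In that fit 2.87% of all genes fell and 2.89% rose.

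Some markers of other cells moved with the collagens. Over all genes 1.37% fell, and 15.97% were lower and 12.4% higher at an unadjusted p under 0.05. The 10 activated fibroblast markers summed to 378 to 574 CPM in miR-21 control hearts and 692 to 1815 CPM in empty vector control hearts, without overlap, and 2 fell, Ckap4 (-0.67 ± 0.13, adjusted p = 0.0197) and Cthrc1 (-3.23 ± 0.84, adjusted p = 0.0486). Their median was -1.73, with 9 of 10 lower at an unadjusted p under 0.05, and without the 3 libraries 4 fell, with a median of -1.35. The 10 resident fibroblast markers summed to 2456 to 3222 CPM against 2624 to 4487 CPM, with 0 called and 8 lower at an unadjusted p under 0.05. Cartilage markers, of which 4 of 10 were tested and 2 fell (Comp, -3.44 ± 0.85, adjusted p = 0.0440, and Acan, -3.58 ± 0.83, adjusted p = 0.0362), summed to 7.05 to 34.1 CPM against 38.5 to 326 CPM. Their highest sums were 178, 326 and 261 CPM in empty vector replicates 2, 4 and 5, the libraries with high Col11a1. The smooth muscle and pericyte markers Cnn1 and Tagln fell (-1.25 ± 0.29, adjusted p = 0.0345, and -0.99 ± 0.23, adjusted p = 0.0394), while the list summed to 3943 to 4410 CPM against 3378 to 5063 CPM. This list went both ways, with 4 higher and 4 lower at an unadjusted p under 0.05 and a median of -0.07. Without the 3 libraries 2 of its markers rose and 2 fell. Macrophage markers summed to 345 to 1013 CPM against 503 to 2444 CPM, with 0 called and 6 lower at an unadjusted p under 0.05. Adipocyte, mesothelial, endothelial, Schwann cell and cardiomyocyte markers had 0 called, with 0, 0, 1, 0 and 2 higher and 4, 0, 0, 1 and 0 lower at an unadjusted p under 0.05. No marker list was at 0, and the part of these cells in the collagen differences was not tested.

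After swimming, the miR-21 vector went with lower Col5a3 and Col6a3 and a rise of Col6a5 that 1 library decides. These are 2 falls of 38, where 2.71% of all genes fell, and 1 rise, where 1.87% rose. The median log2 fold change of the 38 was -0.21, against 0.02 over all genes, and 25 were negative. In 0 of the 38 were the groups separate, against 1.90% of all genes separate with miR-21 lower and 1.36% with miR-21 higher. At an unadjusted p under 0.05, 8 of the 38 were lower, against 9.95% of all genes, and 3 were higher, against 9.88%.

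Col5a3 had 26.3, 37.8, 16.4, 20.6 and 22.6 CPM in miR-21 swimming replicates 1 to 5, and 28.2, 61.5 and 79.2 CPM (lowest, median, highest) in empty vector swimming hearts. Its log2 fold change was -1.22 ± 0.23 (adjusted p = 0.00458), with 5 of 5 libraries below the empty vector mean. Only replicate 2 overlapped the other group, and the call held in 31 of 31 alternatives, from -1.54 to -1.10. These alternatives are not independent, since 23 leave out 1 library each. The term for title number series and the fit within 1 series also called the same number of genes, 707. Col6a3, the large chain of the type VI filament, had 58.2, 92.7, 33.3, 63.7 and 49.8 CPM, against 67.9, 122 and 151 CPM. Its log2 fold change was -0.99 ± 0.24 (adjusted p = 0.0195), again with 5 of 5 libraries below, and the call held in 29 of 31 alternatives. It was lost without miR-21 swimming replicate 5 (adjusted p = 0.0537) and in a fit of only these 2 groups (adjusted p = 0.0759). Col6a5, a chain that can take the place of the large chain in type VI filaments, had 0.15, 49.2, 0.16, 1.03 and 0.08 CPM, against 0 CPM in 4 of 6 empty vector swimming libraries and at most 0.28 CPM. Its fitted log2 fold change, which depends on how zero counts are treated, was 7.22 ± 1.94 (adjusted p = 0.0372), and without replicate 2 it was 2.44 (adjusted p = 0.476). Replicate 2 alone held nearly all of its reads.

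The 2 other main chains of the type VI filament did not pass. Col6a1 had 131, 308, 86.7, 184 and 106 CPM in miR-21 swimming replicates 1 to 5 and 170, 242 and 301 CPM in empty vector swimming hearts (-0.56 ± 0.26, adjusted p = 0.223). Col6a2 had 120, 266, 63.4, 155 and 88.1 CPM against 157, 246 and 280 CPM (-0.77 ± 0.28, adjusted p = 0.118). Replicate 2 was the highest of its group for both. The class median of the 5 beaded chains was -0.56.

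The type I and III chains showed no call after swimming, with wide intervals. Col1a1 had 119, 701, 60.1, 225 and 96.9 CPM in miR-21 swimming replicates 1 to 5 and 154, 246 and 478 CPM in empty vector swimming hearts (-0.21 ± 0.54, 95% interval -1.27 to 0.86). Col3a1 had 274, 1973, 113, 657 and 247 CPM against 349, 716 and 1193 CPM (-0.18 ± 0.61, 95% interval -1.37 to 1.01). Col1a2 had 153, 788, 110, 261 and 133 CPM against 189, 295 and 527 CPM (-0.14 ± 0.49, 95% interval -1.09 to 0.82). In all 3, replicate 2 stood above every empty vector swimming library and 4 of 5 miR-21 libraries were below the empty vector mean. These log2 fold changes were -1.14 for Col1a1, -1.19 for Col3a1 and -0.95 for Col1a2 without the 3 libraries with high adipocyte markers (adjusted p = 0.0844, 0.104 and 0.0914). Col5a1 had 68.3, 202, 39.2, 100 and 57.1 CPM against 100, 142 and 184 CPM (-0.63 ± 0.32, adjusted p = 0.284). Col11a1 had 0.23, 1.76, 0.16, 0.81 and 0.41 CPM against 0.07, 0.23 and 1.53 CPM (0.58 ± 0.93, adjusted p = 0.776), a difference within its error.

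The basement membrane chains Col4a1, Col4a2 and Col15a1 were lower without passing. Of the 8 network chains, 5 log2 fold changes were negative and 3 positive. Without the 3 libraries with high adipocyte markers, 7 were negative and 1 positive, that of Col4a5 (0.17, adjusted p = 0.289). Col4a1 had 802, 1003, 440, 901 and 580 CPM in miR-21 swimming hearts and 614, 1127 and 1252 CPM in empty vector swimming hearts (-0.53 ± 0.19, adjusted p = 0.114). Col4a2 had 626, 750, 380, 700 and 503 CPM against 471, 850 and 923 CPM (-0.43 ± 0.17, adjusted p = 0.142). For both, 5 of 5 libraries were below the empty vector mean. Col15a1 had 118, 299, 44.7, 174 and 76.5 CPM against 156, 267 and 348 CPM (-0.89 ± 0.33, adjusted p = 0.132). Col8a1 had 35.3, 108, 28.9, 55.0 and 31.4 CPM against 38.7, 63.6 and 116 CPM (-0.40 ± 0.37, adjusted p = 0.589). The FACIT chain Col14a1 had 35.1, 181, 34.0, 75.8 and 35.6 CPM against 43.4, 60.6 and 76.7 CPM (0.24 ± 0.39, adjusted p = 0.777), and Col12a1 had 1.28, 16.1, 2.03, 3.97 and 2.31 CPM against 2.83, 4.53 and 14.8 CPM (-0.27 ± 0.58, adjusted p = 0.839). Here too the highest value was that of replicate 2. The 7 FACIT chains had a median of 0.06, the 8 network chains -0.32, the 10 fibrillar chains -0.18 and the 2 multiplexins -0.66.

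Without the 3 libraries with high adipocyte markers the same comparison called 9 chains lower and 0 higher, where 8.62% of all genes fell and 8.69% rose, and the median was -0.63. At an unadjusted p under 0.05 the full model had 3 higher, and DESeq2 on all libraries called 1 higher and 3 lower, of 970 genes called. The 9 were Col5a1 (-1.12, adjusted p = 0.00626), Col5a3 (-1.42, adjusted p = 0.000863), Col4a1 (-0.65, adjusted p = 0.0271), Col4a2 (-0.53, adjusted p = 0.0395), Col6a1 (-0.92, adjusted p = 0.00657), Col6a2 (-1.14, adjusted p = 0.00491), Col6a3 (-1.21, adjusted p = 0.00249), Col15a1 (-1.35, adjusted p = 0.0067) and Col18a1 (-0.91, adjusted p = 0.00843). They are chains of the type IV and VI collagens, both multiplexins and 2 type V chains. The type I and III chains, given above, did not pass in that fit, with log2 fold changes as large as those of several chains that did, and 18 of 36 chains were lower at an unadjusted p under 0.05. Within the higher title number series, miR-21 swimming replicates 3 to 5 against empty vector swimming, 6 chains fell of 707 genes called.

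**Figure D4:**
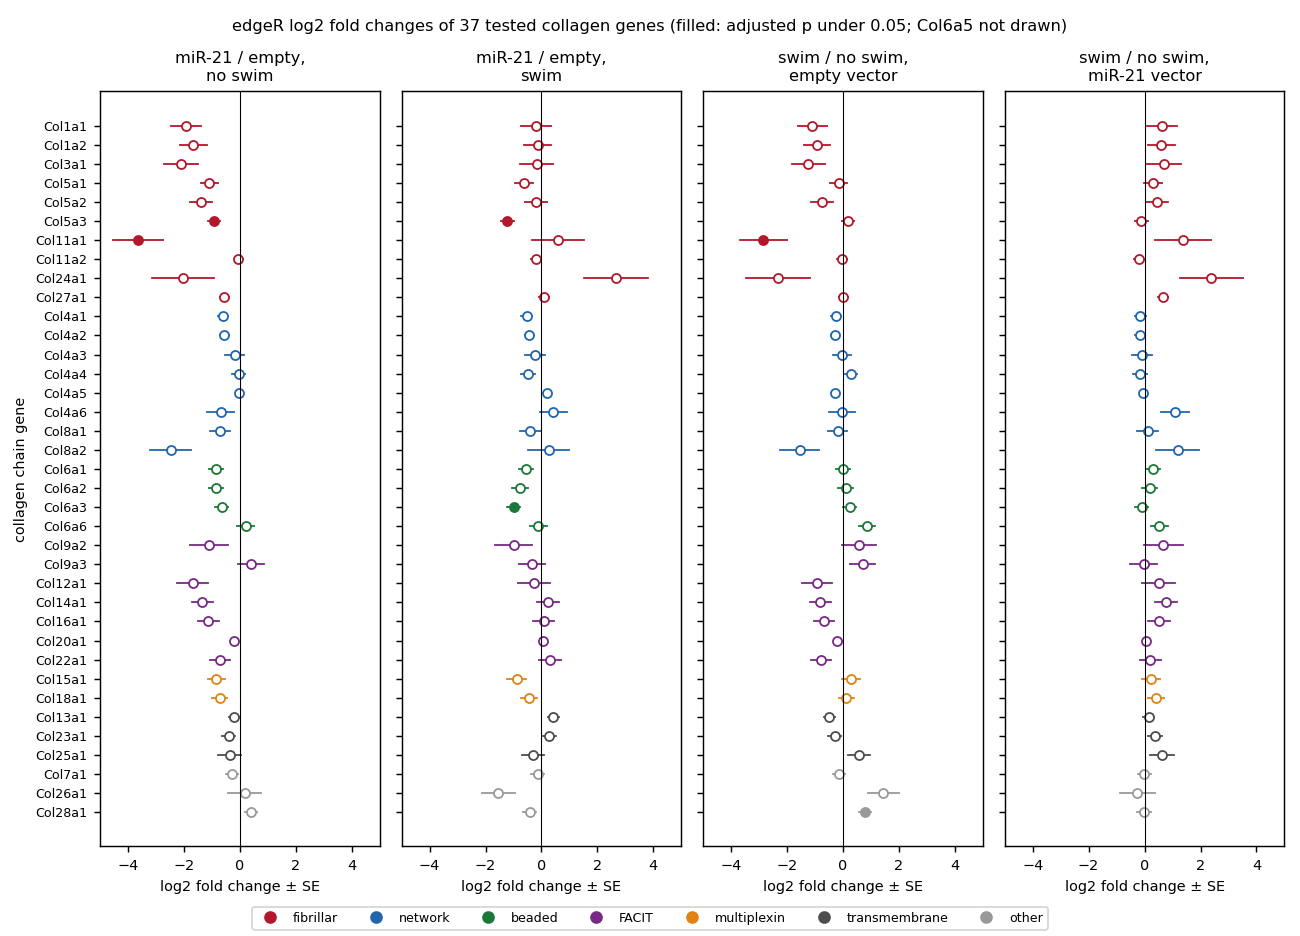
Log2 fold change with its standard error for 37 tested collagen chain genes, ordered by class, in 4 comparisons of 2 groups. Filled points are genes called changed, and Col6a5, whose fitted fold depends on zero counts, is left out. In miR-21 control against empty vector control most points lie left of 0.

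Of the collagen biosynthesis genes, 3 of 33 fell in miR-21 swimming hearts, Fkbp10, a collagen chaperone of the endoplasmic reticulum (-0.49 ± 0.13, adjusted p = 0.0284), its relative Fkbp14 (-0.43 ± 0.11, adjusted p = 0.0303) and Colgalt2, which adds galactose to collagen lysines (-0.41 ± 0.11, adjusted p = 0.0414). The list's median was -0.09, and 2.71% of all genes fell. In the fit without the 3 libraries 11 fell and 1 rose, with a median of -0.27. There 8.62% of all genes fell and 8.69% rose. The collagen receptor Itga1, an integrin chain, also fell (-0.47 ± 0.11, adjusted p = 0.0174). Fibril partners and breakdown genes had 0 calls, with medians of 0.24 and 0.31 and 0 and 3 higher at an unadjusted p under 0.05. Both medians turned negative without the 3 libraries, to -0.27 with 3 partners fallen and to -0.14 with 1 breakdown gene fallen. The median of the 9 tested receptors was -0.11.

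Endothelial markers moved beside Col4a1, Col4a2 and Col15a1. They summed to 1392 to 1669 CPM in miR-21 swimming hearts and 1676 to 2015 CPM in empty vector swimming hearts, without overlap, and 4 of 10 fell: Cdh5 (-0.46 ± 0.09), Erg (-0.43 ± 0.09), Pecam1 (-0.32 ± 0.07) and Kdr (-0.39 ± 0.11), with adjusted p from 0.00624 to 0.0390. Mesothelial markers rose in 4 of 9 tested, Upk3b, Upk1b, Lrrn4 and Msln, and summed to 10.3 to 230 CPM against 11.2 to 17.5 CPM, with the 230 in replicate 2. Of these markers 0 rose without the 3 libraries, 1 fell and 0 were higher at an unadjusted p under 0.05. The adipocyte marker Fabp4, which capillary endothelium also expresses, fell (-0.38 ± 0.09, adjusted p = 0.0152), and that list summed to 660 to 1010 CPM against 811 to 952 CPM. Of the 7 adipocyte markers tested, 4 were higher and 2 lower at an unadjusted p under 0.05, with a median of 4.68. Without the 3 libraries 2 of 6 were higher and 2 lower, with a median of 0.76. Activated fibroblast markers summed to 273 to 2020 CPM against 614 to 1178 CPM, with the 2020 in replicate 2 and 0 called, and without the 3 libraries 4 of 10 fell. Resident fibroblast markers summed to 2707 to 4074 CPM against 2461 to 3369 CPM, with 0 called. Macrophage markers summed to 352 to 2361 CPM against 423 to 841 CPM, with the 2361 in replicate 2 and 0 called. Cardiomyocyte markers summed to 65332 to 137364 CPM against 98639 to 117918 CPM, with the 65332 in replicate 2 and 0 called. Without the 3 libraries 5 of 10 cardiomyocyte markers rose and 0 fell. Over all genes, 1.87% rose and 2.71% fell with every library, and 8.69% and 8.62% without the 3. The part of any of these cells in the collagen values was not tested.

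With the empty vector, swimming went with a fall of Col11a1 and a rise of Col28a1. The 1 fall and 1 rise of 38 stand beside 3.28% of all genes that fell and 4.18% that rose. The median of the 38 was -0.18, against -0.00 over all genes, with 25 negative. Col11a1 had 0.07, 0.23 and 1.53 CPM in empty vector swimming hearts and 0.21, 2.84 and 8.15 CPM in empty vector control hearts, a log2 fold change of -2.85 ± 0.84 (adjusted p = 0.0413) with 6 of 6 libraries below the control mean. Col28a1, a chain known in the mouse from peripheral nerve, had 3.41, 5.12 and 6.91 CPM against 1.94, 2.91 and 4.17 CPM, with 0.79 ± 0.23 (adjusted p = 0.0345) and 6 of 6 libraries above. The ranges of both genes overlapped between the groups. Neither call stood without the 3 libraries with high adipocyte markers, where Col28a1 had 0.73 (adjusted p = 0.0532) and Col11a1 was not among the genes tested. With a term for title number series neither passed, with -1.72 (adjusted p = 0.681) for Col11a1 and 0.87 (adjusted p = 0.393) for Col28a1. Only the miR-21 swimming group has libraries in both series, so the term rests on that group alone. It cannot separate swimming from series in these 2 groups, and no conclusion is drawn from it.

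Beaded chains included the only separate groups in this comparison. Col6a5 had at most 0.28 CPM in empty vector swimming hearts and 0.52, 4.47 and 12.4 CPM in empty vector control hearts. Its fitted log2 fold change was -6.27 ± 1.95 (adjusted p = 0.0533). That is 1 gene of 38 without overlap and lower in swimming hearts, against 1.68% of all genes, and 0 were higher without overlap, against 2.90%. Col6a6, another alternative chain, had 0.85 ± 0.30 (adjusted p = 0.0793), with 6 of 6 swimming libraries above the control mean. The fibrillar chains had a median of -0.84 and none but Col11a1 passed. Col1a1 had -1.10 ± 0.52 (adjusted p = 0.209), Col3a1 -1.24 ± 0.58 (adjusted p = 0.206) and Col5a3 0.18 ± 0.21 (adjusted p = 0.643). Col4a1 and Col4a2 had -0.23 ± 0.18 and -0.29 ± 0.16 (adjusted p = 0.455 and 0.282). In the fit without the 3 libraries, Col6a6 rose (1.44, adjusted p = 0.00155), where 6.06% of genes rose, and Col4a5 and Col6a5 fell (-0.35, adjusted p = 0.0306, and -5.22, adjusted p = 0.0325), where 5.55% did. The type I and III differences were -0.46 for Col1a1, -0.31 for Col1a2 and -0.40 for Col3a1 there, and the median over 36 chains was -0.10.

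Of the collagen biosynthesis genes 7 of 33 changed in this comparison, with 5 lower and 2 higher and a median of -0.15. Over all genes 3.28% fell and 4.18% rose. P4ha1, the main catalytic subunit of prolyl 4-hydroxylase, whose product stabilises the helix, averaged 49.7 ± 7.47 CPM in swimming hearts and 93.6 ± 11.6 CPM in control hearts (SD, n = 6 each), with -0.91 ± 0.12 (adjusted p = 9.72e-05 by edgeR). P3h2, a prolyl 3-hydroxylase, fell (-1.24 ± 0.25, adjusted p = 0.00403), as did P4ha3 (-2.72 ± 0.66, adjusted p = 0.0158) and Plod2, a lysine hydroxylase of cross-link sites (-0.44 ± 0.12, adjusted p = 0.0215). Of breakdown genes 4 of 13 fell, the protease genes Mmp3 (-3.91 ± 0.82), Ctsl (-0.36 ± 0.10) and Mmp12 (-2.39 ± 0.73) and the inhibitor Timp1 (-2.41 ± 0.59). Of fibril partners 2 of 14 fell, Dcn, the small proteoglycan decorin (-0.59 ± 0.18), and Abi3bp (-1.17 ± 0.35). Itga1 rose (0.44 ± 0.11). With the 3 libraries left out 3 biosynthesis genes rose and 6 fell, 2 breakdown genes fell and 0 partners fell, with 6 partners lower at an unadjusted p under 0.05. In that fit 6.06% of all genes rose and 5.55% fell. All these tests share the confounding with title number series.

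Beside these values, the Schwann cell marker Gfra3 rose (1.29 ± 0.29, adjusted p = 0.00912), and its list summed to 41.4 to 66.7 CPM in empty vector swimming hearts and 34.7 to 56.7 CPM in empty vector control hearts. Endothelial markers rose in 4 of 10 (Erg, Cdh5, Pecam1 and Tek) and smooth muscle and pericyte markers in 3 of 10 (Rgs5, Notch3 and Kcnj8), where 4.18% of all genes rose. Of the smooth muscle and pericyte list, 3 were higher and 2 lower at an unadjusted p under 0.05, with a median of -0.01. Cartilage markers fell in 2 of 4 (Comp and Chad), resident fibroblast markers in 2 of 10 (Fbln1 and Dcn), adipocyte markers in 4 of 7 (Adipoq, Cfd, Car3 and Cidec) and mesothelial markers in 1 of 9 (Upk3b), which without the 3 libraries was 4 of 8. Over all genes 3.28% fell, and 5.55% without the 3 libraries. Activated fibroblast markers had 0 calls, with 4 lower at an unadjusted p under 0.05 and a median of -0.65. Their part in the collagen values was not tested.

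With the miR-21 vector, swimming changed none of the 38 chains in the model, where 0.170% of all genes were called. At an unadjusted p under 0.05, 3 of 38 chains were higher and 0 lower, against 9.51% of all genes higher and 9.24% lower, and DESeq2 called 1 higher. The median was 0.30, against 0.03 over all genes, with 26 positive, and it turned to -0.18 over 36 chains without the 3 libraries with high adipocyte markers. Col27a1, a fibrillar chain of the growth plate, had 13.1, 18.5, 12.6, 14.5 and 14.2 CPM in miR-21 swimming replicates 1 to 5 and 7.12, 9.09 and 11.6 CPM in miR-21 control hearts. It was the only gene of the 38 whose groups did not overlap, against 0.948% of all genes with swimming higher, and none was separate with swimming lower, against 1.81%. Its log2 fold change was 0.67 ± 0.18 (adjusted p = 0.0830). Col1a1 had 0.62 ± 0.54 (95% interval -0.45 to 1.68), Col3a1 0.69 ± 0.60 and Col5a3 -0.12 ± 0.23. Excluding the 3 libraries, Col1a1 had -0.33, Col3a1 -0.33 and Col27a1 0.57 (adjusted p = 0.789, 0.811 and 0.0903), and 0 chains passed, with 2 higher and 0 lower at an unadjusted p under 0.05. Col4a1 and Col4a2 had -0.15 ± 0.19 and -0.16 ± 0.17. Beside them, no gene of the biosynthesis, partner, receptor and breakdown lists was called, with 3, 1, 1 and 3 higher and 4, 0, 0 and 0 lower at an unadjusted p under 0.05, and no marker of the 10 cell type lists was called, with 6 of 9 mesothelial and 4 of 7 adipocyte markers higher at an unadjusted p under 0.05. The median of the activated fibroblast markers was 0.38. Within the lower title number series, 2 miR-21 swimming libraries against miR-21 control, 2 chains rose of 1076 genes called. Those 2 libraries are replicates 1 and 2, and replicate 2 is among the 3 libraries with high adipocyte markers.

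The effect of swimming was also set against itself under the 2 vectors, as the difference of the 2 log2 fold changes. This difference contains the empty vector comparison, so it cannot be told apart from title number series either. None of the 38 chains passed, where 0.541% of all genes were called, while 12 had a positive and 1 a negative difference at an unadjusted p under 0.05, against 12.7% and 8.73% of all genes. DESeq2 called 2, both positive, of 719 genes called. The fibrillar chains had a median difference of 1.36, with 7 of 10 positive at an unadjusted p under 0.05, against a median of 0.01 over all genes. Col11a1 had 4.22 ± 1.30 (adjusted p = 0.0918), Col24a1 4.70 ± 1.60 (adjusted p = 0.114), Col14a1 1.59 ± 0.54 (adjusted p = 0.112), Col1a1 1.72 ± 0.75 (adjusted p = 0.193) and Col3a1 1.92 ± 0.84 (adjusted p = 0.192). Col5a3 and Col6a3 had -0.30 ± 0.31 and -0.33 ± 0.32 (adjusted p = 0.604 and 0.567). The adipocyte markers Cfd, Adipoq, Car3 and Cidec, the cartilage marker Comp and the fibroblast marker Fbln1 passed with positive differences. Several positive differences were smaller without the 3 libraries, at 0.13 for Col1a1, 0.07 for Col3a1 and 0.49 for Col14a1, while Col5a3 and Col6a3 had -0.65 and -0.72 (adjusted p = 0.429 and 0.361), with a median of 0.08 over 8 fibrillar chains and of 0.02 over 36 chains. In that fit 0 chains passed, with 2 positive and 3 negative at an unadjusted p under 0.05.

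Ratios of chains within a library do not depend on the scaling for library size, but they can still vary with the library's collagen total. In miR-21 swimming hearts the log2 ratio of Col1a1 to Col1a2 rose in the order of that total. It was -0.87 in replicate 3, at 252 FPKM, and -0.17 in replicate 2, at 1430 FPKM. In miR-21 control hearts it was -0.41 in replicate 3, at 364 FPKM, and -0.23 in replicate 5, at 569 FPKM, and highest in replicate 6. The order did not hold in either empty vector group. In empty vector control hearts the ratio was 0.00 in replicate 3, at 690 FPKM, and -0.06 in replicate 5, at 1636 FPKM. In 5 ratios and 4 comparisons, 20 exact permutation tests (two-sided, over libraries, adjusted over the 20) were run, and 2 passed. Type I collagen is built from 2 Col1a1 chains and 1 Col1a2 chain. The log2 ratio of Col1a1 to Col1a2 in CPM was -0.30 ± 0.09 in miR-21 control hearts and -0.05 ± 0.08 in empty vector control hearts (SD, n = 6 each), a difference of -0.25 (exact permutation p = 0.00433, adjusted p = 0.0433). It was -0.23 without the 3 libraries (adjusted p = 0.0952 by exact permutation). In empty vector swimming hearts the ratio was -0.21 ± 0.09, a difference of -0.16 from empty vector control hearts (exact permutation p = 0.0130, adjusted p = 0.0649), and in miR-21 swimming hearts it was -0.42 ± 0.28 (SD, n = 5), a difference of -0.21 from empty vector swimming hearts (exact permutation, adjusted p = 0.272). Both comparisons with empty vector control hearts use the same control libraries.

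Type VI filaments hold 1 chain each of Col6a1, Col6a2 and a larger chain. The log2 ratio of Col6a1 to Col6a2 was 0.26 ± 0.12 in miR-21 swimming hearts (SD, n = 5) and 0.03 ± 0.08 in empty vector swimming hearts (SD, n = 6), a difference of 0.23 (exact permutation p = 0.00216, the smallest that these groups allow, adjusted p = 0.0433). The groups did not overlap, at 0.124 to 0.45 in miR-21 swimming hearts and -0.083 to 0.121 in empty vector swimming hearts. Within the higher title number series the difference was 0.29 (exact permutation p = 0.0119, again the smallest possible, adjusted p = 0.0595), and without the 3 libraries it was 0.24 (adjusted p = 0.0476 by exact permutation). The log2 ratio of Col4a1 to Col4a2, the pair with a shared promoter region, was 0.31 ± 0.10 in miR-21 swimming hearts and 0.42 ± 0.04 in empty vector swimming hearts, a difference of -0.11 (exact permutation p = 0.0130, adjusted p = 0.0649). It was -0.14 without the 3 libraries (adjusted p = 0.0476 by exact permutation). The ratios of Col3a1 to Col1a1 and of Col8a1 to Col4a1 did not pass in any of the 4 comparisons.

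**Figure D5:**
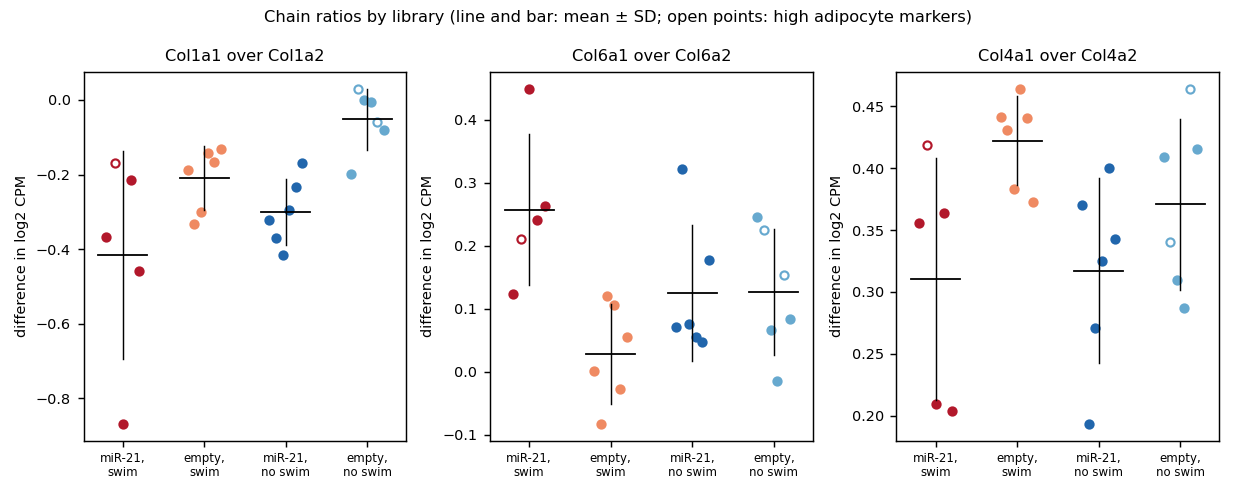
Log2 ratio of 2 chains in each library, for Col1a1 to Col1a2, Col6a1 to Col6a2 and Col4a1 to Col4a2, with the group mean and standard deviation. The Col6a1 to Col6a2 ratio of miR-21 swimming hearts, 0.26 on average, lies above that of empty vector swimming hearts, 0.03.

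In the authors' deposited table of miR-21 control against empty vector control, 13 collagen chains were lower and 0 higher at their q-value under 0.05, against the 2 lower ones found here. Col5a3 was among them at -0.92 (q = 0.000173) in the authors' deposited table, while Col11a1 had -3.68 (q = 0.0550). The authors' deposited table of miR-21 swimming against empty vector swimming had 2 chains lower and 0 higher, Col5a3 at -1.22 (q = 0.0196) and Col6a3 at -0.99 (q = 0.0336). Col6a5 had 7.43 (q = 0.835) in the authors' deposited table. The authors' deposited table of empty vector swimming against empty vector control had 1 higher, Col28a1 at 0.79 (q = 0.0224), and 1 lower, Col6a5 at -6.49 (q = 0.00274), and that of miR-21 swimming against miR-21 control had 0.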

How the data were processed

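Libraries of mouse heart RNA (TRIzol) came from a stranded mRNA kit, per the labels, and reads were placed on GRCm39, per the submitters' processing notes. Aligner, counter and strand setting are not given in the sources used, so reads shared with an antisense or overlapping gene cannot be told apart. The authors deposited a raw count and an FPKM value for each gene and library, and 4 comparison tables with log2 fold changes, p-values and q-values of their own. Counts were used for all gene tests, FPKM only for levels between genes (with a pseudocount of 0.1 where logged), and the deposited log2 fold changes and q-values only where named. Another 46 columns were not used, and miR-21 swimming replicate 6 is not analysed here.

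Genes were filtered with filterByExpr, scaled by trimmed mean of M-values (TMM) and fitted in 1 edgeR quasi-likelihood model with robust dispersion over 23 libraries (R 4.3.3, edgeR 4.0.16, limma 3.58.1). Each log2 fold change carries its standard error, and CPM values are TMM-scaled. Whether a library lies on one side of the other group was judged on the mean log2 CPM with a prior count of 2, as were the chain ratios. The model was tested on simulated counts with known changes. None of 253 library pairs held identical counts. DESeq2 1.42.0, RLE scaling, other filters, only the 2 groups compared, a term for title number series and leaving out each library were alternatives. Figures were drawn with matplotlib 3.10.9 and sequences read with pandas 2.3.3 in Python 3.11.15. Sequences came from RefSeq (GRCm38.p6) and GENCODE M21 and were matched by symbol.

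The collagen genes, the lists of biosynthesis, partner, receptor, breakdown and cell type genes, and the tests were chosen with earlier results of these data known. Values per library are given for 11 preset chains and every chain called in a comparison, and from each list up to 4 called genes with the smallest p. Other chains are given by counts, or were named after their values were seen. The result of 1 listed marker gene is not reported here.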

Additional observations from a re-analysis of the deposited data

Results flagged for a closer look

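Of 60 groups of 5 or 6 libraries, the 4 groups for each of 15 chains, 4 held a library whose gap to its nearest neighbour was a large part of the group's range, and chance gives about 1 in 20. Replicate 3 of the empty vector swimming group was low for Col4a1, at 614 CPM with the next library at 1069 CPM, and for Col15a1, at 156 CPM with the next at 259 CPM. Replicate 5 of the miR-21 control group was high for Col12a1, at 7.04 CPM with the next at 3.46 CPM. Replicate 3 of the empty vector control group was low for Col5a3, at 30.6 CPM with the next at 50.1 CPM.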

How the results depend on the processing

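No paired analysis was possible because the title numbers of the 4 groups are not shared. The number of collagen chains called kept its size with RLE scaling and with a filter of at least 1 CPM. For miR-21 control against empty vector control it was 0 with no filter, 17 with DESeq2, 18 with only the 2 groups and 15 with a term for title number series, where 150, 1235, 1622 and 911 of all genes were called. For miR-21 swimming against empty vector swimming it was 1 with only the 2 groups, 6 with the term or within 1 series and 9 without the 3 libraries with high adipocyte markers. Over all genes, 165, 707 and 2318 were called in that order. For empty vector swimming against empty vector control it was 1 with no filter or only the 2 groups, 4 with DESeq2 and 0 with the term, which cannot separate swimming from series there. Of all genes, 848, 1129, 1414 and 164 were called in these 4 settings. For miR-21 swimming against miR-21 control it was 1 with DESeq2 (378 of all genes) and 2 with the term or within 1 series (1076). For the difference between vectors it was 2 with DESeq2, where 719 of all genes were called. With each library left out, the counts ran from 2 to 9 (miR-21 swimming against empty vector swimming), 0 to 19 (miR-21 control against empty vector control), 0 to 3 (empty vector swimming against empty vector control), 0 to 0 (miR-21 swimming against miR-21 control) and 0 to 1 (difference between vectors). Over all genes, the calls for miR-21 control against empty vector control ran from 17 to 2885. Ratios left one out ran from -0.28 to -0.23 for Col1a1 to Col1a2 in miR-21 control against empty vector control hearts (adjusted p by exact permutation 0.0289 to 0.0866), from -0.19 to -0.13 in empty vector swimming against empty vector control hearts, and in miR-21 swimming against empty vector swimming hearts from 0.18 to 0.26 for Col6a1 to Col6a2 and from -0.14 to -0.085 for Col4a1 to Col4a2. Without the 3 libraries the first was -0.23 and the last -0.14, and within 1 series the Col6a1 to Col6a2 difference was 0.29. The cause of these shifts was not tested. Depth limits the chains below about 1 CPM, such as Col11a1, Col24a1 and Col6a5, and intervals cover the spread of these libraries only.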
